A study of Drosophila melanogaster with 16 samples.

Results

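Of 41 listed genes that drive or carry out the cell cycle and DNA replication, 39 were found by their gene symbol among the 17559 genes of each table, and Mcm3 and Top2 are not analysed here. The genes were matched to the tables by symbol alone. They were followed in RNA of trachea, the branched airway, isolated from larvae of the fruit fly Drosophila melanogaster, of the laboratory strain Canton S, which serves as a wild type. Larvae were exposed to mainstream smoke of 3R4F research cigarettes, given over 60 min at 4 puffs per min, while controls received air. With the sexes kept apart, this gave 4 groups of 4 libraries, all of the Canton S genotype: females in smoke, females in air, males in smoke and males in air. The labels give no age of the larvae, no time between exposure and sampling, and no number of animals per library. The study asked how early-life smoke changes signalling in the airway, and smoke was set against air within each sex.

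A dividing cell passes from a growth phase (G1) through DNA synthesis (S), a second gap (G2) and mitosis (M), and cyclins with their cyclin-dependent kinases push it across each border. Before S phase the origin recognition complex and Dup load the Mcm helicase onto DNA, a step called licensing, and E2f1 with its partner Dp switches on many replication genes. Many cells of the larval fly, those of most of the tracheal tree among them, repeat S phase without mitosis and become polyploid. The imaginal cells, which build adult tissue and include tracheal progenitors, go through full mitotic cycles. The 39 genes are described below by role: 8 in G1 and S phase control, 11 in origin licensing, 3 in DNA synthesis, 7 in entry into mitosis (G2 and M phase) and 10 in mitosis and cytokinesis.

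Gene reads per library numbered 15036560 to 23434521, and within each group replicates 1 and 2 were deeper than replicates 3 and 4. Every one of the 39 genes passed the filter in both sexes, and the lowest was aurA with 64 reads in its poorest library, so counting error weighs most on that gene. Values are normalised read counts, which are gene reads over the size factor of the library. They are comparable between libraries of a sex for 1 gene, but not between genes of different length. Changes are differences of log2(value + 1), smoke minus air, ± SE, tested by limma with Benjamini-Hochberg adjustment over all genes, and a gene is called at an adjusted p under 0.05. The labels do not say whether replicates were separate animals or cultures, so a p-value here reflects only the spread between samples, which may be technical. Of 12 tracheal markers 11 were found and all were detected, with a summed level of 9288 to 11974 CPM (gene reads scaled to a common library total) in smoke-exposed females, 6403 to 10766 in air-exposed females, 10580 to 15100 in smoke-exposed males and 7655 to 12606 in air-exposed males.

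In females, 18 of the 39 cell cycle genes fell with smoke, none rose and 21 were not called. Those that fell came from every role group: the S phase kinase Cdk2 and its cyclin CycE, 6 licensing genes, the replication clamp PCNA and both subunits of ribonucleotide reductase, the mitotic kinase Cdk1 with CycA and CycB, and the mitotic genes aurA, aurB, fzy and pav. Of all genes tested, 7.09% fell and 10.9% rose. The median change of the 39 genes was -0.49, against -0.02 for all genes tested, with single genes between -1.13 (aurB) and 0.17 (CycD). Of the 39, 37 had a change below 0, compared with 52.2% of all genes. Imaginal disc markers, described with their limits after the cell cycle genes, were lower in the same samples (11 of 18 fell), and their part in this result was not tested. RNA of a whole tissue cannot tell fewer cells of a type from less RNA per cell.

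In males, 1 of the 39 genes rose (CycD), 1 fell (Cdk2) and 37 were not called. With replicate number added to the fit as a term, both calls were kept and 7 more of the 39 were called. The share of all genes called in that fit is not given here. The background in males was 4.64% of genes falling and 8.89% rising. The median change of the 39 genes was 0.02, against -0.01 for all genes, with single genes between -0.64 (Cdk2) and 0.47 (CycD). Here 19 genes had a change below 0 and 20 above.

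**Figure D1:**
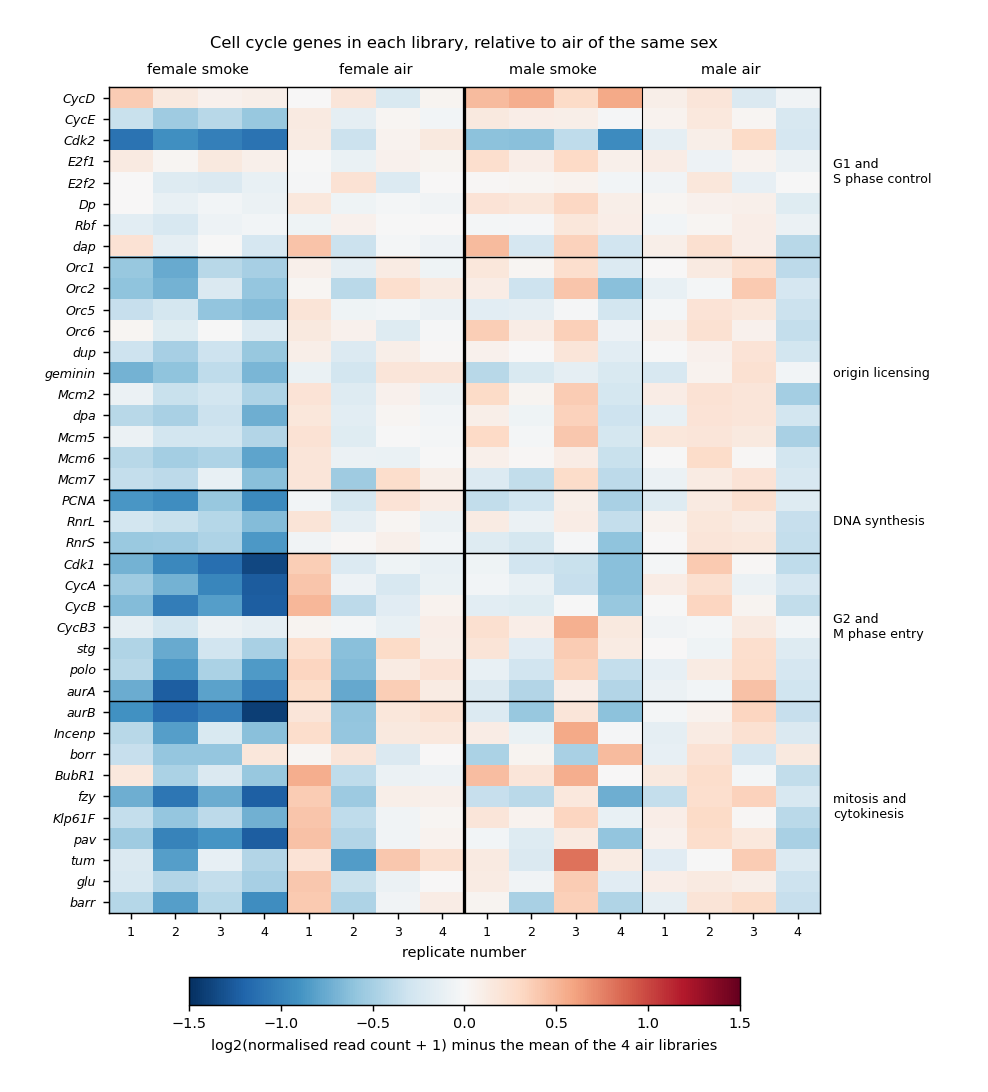
Each square is 1 gene in 1 library, coloured by log2(normalised read count + 1) minus the mean of the 4 air libraries of the same sex, with genes in rows grouped by role and libraries in columns. The 4 smoke-exposed female columns are blue for most genes below the first role group, and Cdk2 is blue in smoke columns of both sexes. In the male smoke columns CycD is red, and the direction otherwise differs between genes.

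Of the 8 genes that control G1 and entry into S phase, 2 fell in females, where the median change was -0.09, and 1 rose and 1 fell in males, where it was 0.07. The 2 that fell in females were the S phase kinase and its cyclin. The E2f, Dp and Rbf genes, which set the transcription of replication genes, were not called in either sex.

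Cdk2 (FBgn0004107, chromosome arm 3R) encodes the kinase that starts S phase. It was the 1 gene of the 39 called as lower in both sexes in the fits without replicate number. It had 172, 196, 182 and 172 normalised reads in smoke-exposed females, against 406, 296, 386 and 409.7 in air-exposed females. In males it had 181, 181, 213 and 144 in smoke, against 254, 297, 341 and 234 in air. All smoke libraries lay below all air libraries in each sex. The change was -1.04 ± 0.12 in females (adjusted p = 0.00168) and -0.64 ± 0.16 in males (adjusted p = 0.0365). The female and male changes differed by -0.40 ± 0.20 (adjusted p = 0.402), so a sex difference was not detected for this gene. Without any 1 of male air 1, 2 or 3 or male smoke 1, 2 or 4 the male call was lost.

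CycE (FBgn0010382, chromosome arm 2L) encodes the cyclin that activates Cdk2. Its counts were 591, 512, 559 and 502 in smoke-exposed females and 817, 678, 760.1 and 724 in air-exposed females, with no overlap. Males had 643, 624, 622 and 577 in smoke and 606, 651, 594 and 493 in air, and there the groups overlapped. The change was -0.46 ± 0.09 in females (adjusted p = 0.0107) and 0.08 ± 0.10 in males (adjusted p = 0.622). In males the sign turned to -0.01 with libraries set to the same upper quartile.

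The cyclin of G1 growth, CycD (FBgn0010315, chromosome arm X), rose in males. Its counts were 1064, 1119, 934 and 1137 in smoke-exposed males and 817, 867, 660.1 and 740.0 in air-exposed males, all smoke libraries being higher. Females had 1137, 962, 912 and 922 in smoke and 871, 988, 742 and 897 in air, and these overlapped. The change was 0.47 ± 0.11 in males (adjusted p = 0.0266), while the female change was 0.17 ± 0.11 (adjusted p = 0.326). The male call was lost with libraries set to the same total or upper quartile, and without any 1 of male air 3 or 4 or male smoke 1, 2 or 4.

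E2f1 (FBgn0011766, chromosome arm 3R) encodes the activating transcription factor of the E2f pair and had the highest counts of the 39 genes. It had 6421, 5957, 6471 and 6189 in smoke-exposed females and 5852, 5443, 6112 and 6029.8 in air-exposed females, and 6542, 5889.8, 6770.5 and 5788 in smoke-exposed males against 5933, 5225, 5689 and 5184 in air-exposed males. Groups overlapped in both sexes, and the changes of 0.10 ± 0.07 in females (adjusted p = 0.362) and 0.18 ± 0.08 in males (adjusted p = 0.169) were not called. The female sign turned to -0.01 with libraries set to the same upper quartile and to -0.02 at the same total. The log2 difference of the repressor E2f2 was -0.13 ± 0.11 in females and 0.02 ± 0.08 in males. That of the shared partner Dp was -0.06 ± 0.07 in females (adjusted p = 0.635) and 0.19 ± 0.08 in males (adjusted p = 0.143), where all smoke libraries were above all air libraries. That of the retinoblastoma homologue Rbf, which holds E2f back, was -0.13 ± 0.07 in females and 0.06 ± 0.07 in males, and none of the 3 was called.

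The Cdk2 inhibitor dacapo (dap) was not called either. It had 854, 666, 729 and 616 in smoke-exposed females, 988, 585, 722 and 696 in air-exposed females, 846, 511, 774 and 499 in smoke-exposed males and 645, 716, 651 and 456 in air-exposed males. The libraries of a group were spread more widely than the groups were apart, and the changes were -0.05 ± 0.17 in females (adjusted p = 0.878) and 0.07 ± 0.22 in males (adjusted p = 0.859). With 1 library left out at a time the change ranged over both signs in both sexes.

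Of the 11 origin licensing genes, 6 fell in females and none was called in males. The 6 were Orc1 and Orc5 of the origin recognition complex, the helicase loader dup, its inhibitor geminin, and the helicase subunits dpa (the Mcm4 subunit) and Mcm6. The median change of the group was -0.46 in females and 0.02 in males, and all 11 female values were below 0.

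Orc1, a subunit of the complex that marks origins, had 253, 222, 281 and 265 normalised reads in smoke-exposed females and 397, 341, 409.6 and 358 in air-exposed females, without overlap. Males had 309.5, 282, 328 and 239 in smoke and 276, 303, 328 and 209.9 in air, in overlapping ranges. The change was -0.56 ± 0.11 in females (adjusted p = 0.00984) and 0.06 ± 0.16 in males (adjusted p = 0.833), the male sign turning to -0.02 at the same upper quartile and -0.01 at the same total. Of the other subunits, Orc5 fell in females and Orc2 and Orc6 were not called. Their female log2 differences were -0.52 ± 0.17 (Orc2, adjusted p = 0.0658), -0.46 ± 0.13 (Orc5, adjusted p = 0.0375) and -0.09 ± 0.12 (Orc6, adjusted p = 0.652). The Orc5 call was lost when any 1 of female air 1, 3 or 4 or female smoke 1, 3 or 4 was left out.

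The loader dup and its inhibitor geminin both fell in females. Dup had 671, 589, 674 and 562 normalised reads in smoke-exposed females and 888, 725, 889 and 846 in air-exposed females. Geminin had 625, 674, 783 and 634 in smoke-exposed females and 953, 847, 1162 and 1162 in air-exposed females. Neither gene's groups overlapped, and the changes were -0.42 ± 0.10 for dup (adjusted p = 0.022) and -0.59 ± 0.13 for geminin (adjusted p = 0.0157). In males dup had 695, 666, 758 and 598 in smoke and 664, 698, 769 and 551 in air. Male geminin was 647, 737, 784 and 739 in smoke and 730.1, 899, 1009.9 and 842 in air. Both male pairs overlapped, with changes of 0.02 ± 0.12 for dup, whose sign was below 0 in edgeR and at the same total or upper quartile, and -0.25 ± 0.11 for geminin (adjusted p = 0.161). The female dup call was lost without any 1 of female air 1, 3 or 4 or female smoke 2 or 4.

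Among the helicase subunits, Mcm6 (FBgn0025815, chromosome arm X) had 1103, 1035, 1067.8 and 850.1 normalised reads in smoke-exposed females and 1676, 1389.8, 1378 and 1461 in air-exposed females. In males it had 1174, 1125, 1197 and 884 in smoke and 1107, 1342, 1120.5 and 916 in air. Female smoke libraries were all lower than female air libraries, and the male groups overlapped. The change was -0.54 ± 0.11 in females (adjusted p = 0.011) and -0.03 ± 0.14 in males (adjusted p = 0.906), the male sign turning to 0.02 in replicates 3 and 4 alone. Dpa fell in females, with a change of -0.49 ± 0.11 (adjusted p = 0.0178). The other 3 subunits were not called in females, with changes of -0.29 ± 0.11 for Mcm2, -0.27 ± 0.11 for Mcm5 and -0.37 ± 0.19 for Mcm7. In males the 5 subunits had changes between -0.17 (Mcm7) and 0.11 (Mcm2).

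All 3 genes of DNA synthesis fell in females and none was called in males. Their median change was -0.61 in females and -0.26 in males. Their summed level was 178 to 231 CPM in smoke-exposed females, against 323 to 372 in air-exposed females, and 183 to 259 in smoke-exposed males, against 214 to 322 in air-exposed males.

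PCNA (FBgn0005655, chromosome arm 2R) encodes the sliding clamp that holds DNA polymerase on its template and is a widely used marker of S phase. It had 1057, 1016, 1308 and 998 normalised reads in smoke-exposed females, against 1880.4, 1611, 2247 and 2091 in air-exposed females. In males it had 1092, 1145, 1502 and 1007 in smoke, against 1233, 1546, 1666 and 1234 in air. No female smoke library reached the lowest female air library, whereas the male groups overlapped. The change was -0.84 ± 0.13 in females (adjusted p = 0.00475) and -0.26 ± 0.15 in males (adjusted p = 0.274).

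The 2 subunits of ribonucleotide reductase, which supplies the deoxynucleotides for DNA synthesis, fell alongside. The small subunit RnrS had 1377, 1386, 1469.6 and 1113 in smoke-exposed females and 1959, 2057, 2139 and 1968 in air-exposed females. The large subunit RnrL had 1936, 1845, 1737 and 1489.7 in smoke-exposed females and 2666, 2133, 2376 and 2198 in air-exposed females. Neither gene's female groups overlapped, and the changes were -0.61 ± 0.09 for RnrS (adjusted p = 0.00494) and -0.42 ± 0.11 for RnrL (adjusted p = 0.029). In males RnrS had 1438, 1370.0, 1631 and 1082 in smoke and 1649, 1868, 1852 and 1289 in air. Male RnrL was 2036, 1766, 2019 and 1464 in smoke and 1946, 2107, 2041 and 1469 in air. Both overlapped, and the changes of -0.27 ± 0.16 for RnrS (adjusted p = 0.282) and -0.05 ± 0.15 for RnrL (adjusted p = 0.846) were not called. The female RnrL call was lost without any 1 of female air 1, 3 or 4 or female smoke 2, 3 or 4.

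The genes of entry into mitosis had the lowest median of the role groups in females. The median was -0.87 in females, where 4 of 7 fell, and -0.23 in males, where none was called. Their summed level was 243 to 332 CPM in smoke-exposed females and 383 to 633 in air-exposed females, and 269 to 349.9 in smoke-exposed males against 287 to 409 in air-exposed males.

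Cdk1 (FBgn0004106, chromosome arm 2L), the kinase that triggers mitosis, had 485, 406, 361 and 308 normalised reads in smoke-exposed females and 1029.9, 691, 761 and 734 in air-exposed females. Every smoke-exposed female library was below every air-exposed one. Males had 544, 469, 452 and 370.0 in smoke and 560.0, 747, 577 and 436 in air, and these overlapped. The change was -1.04 ± 0.17 in females (adjusted p = 0.00595) and -0.33 ± 0.18 in males (adjusted p = 0.25).

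Of the 3 mitotic cyclins, CycA and CycB fell in females and CycB3 was not called. CycA, which acts in S and G2 phase, had 1311, 1162, 963 and 796 in smoke-exposed females and 2524, 1806, 1606 and 1770.3 in air-exposed females. CycB, the main partner of Cdk1 at entry into mitosis, had 873, 667, 776 and 584 in smoke-exposed females and 1945, 1044, 1225 and 1430.2 in air-exposed females. CycB3, a cyclin of later mitosis, had 858, 781, 889 and 857 in smoke-exposed females and 970.4, 926, 872 and 1014 in air-exposed females. CycA and CycB did not overlap between female groups, CycB3 did, and the changes were -0.87 ± 0.19 for CycA (adjusted p = 0.0166), -0.94 ± 0.20 for CycB (adjusted p = 0.0163) and -0.16 ± 0.08 for CycB3 (adjusted p = 0.183).

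The same cyclins overlapped between groups in males. CycA had 1397, 1329, 1134 and 933 in smoke-exposed males and 1556, 1694, 1349.5 and 1205 in air-exposed males. CycB had 838, 824, 933 and 631 in smoke and 937, 1169.5, 968 and 727 in air. CycB3 had 896, 816, 1098 and 838 in smoke and 731, 743, 831 and 737 in air. None was called, with changes of -0.28 ± 0.15 for CycA (adjusted p = 0.254), -0.23 ± 0.17 for CycB (adjusted p = 0.384) and 0.25 ± 0.11 for CycB3 (adjusted p = 0.141).

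String (stg, FBgn0003525, chromosome arm 3R) is the Cdc25 phosphatase that activates Cdk1, and its transcription times mitosis in imaginal cells. It had 1367, 1107, 1538 and 1339 in smoke-exposed females and 2235, 1209.7, 2295 and 1988 in air-exposed females. Female air 2 was far below the other female air libraries and within the smoke range, so the groups overlapped and the change of -0.50 ± 0.21 was not called (adjusted p = 0.138). Males had 1516, 1176, 1728 and 1440.1 in smoke and 1328, 1267, 1572 and 1155 in air, a change of 0.13 ± 0.14 (adjusted p = 0.548). The mitotic kinase polo was not called in females at -0.65 ± 0.22 (adjusted p = 0.0764) or in males at -0.10 ± 0.17.

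The centrosome kinase aurA fell in females, with a change of -0.96 ± 0.26 (adjusted p = 0.0368). It had 106, 75.1, 102 and 85.3 normalised reads in smoke-exposed females and 217, 104, 231 and 195 in air-exposed females, and female air 2 lay inside the smoke range. The call was lost when any 1 library other than female air 2 was left out.

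**Figure D2:**
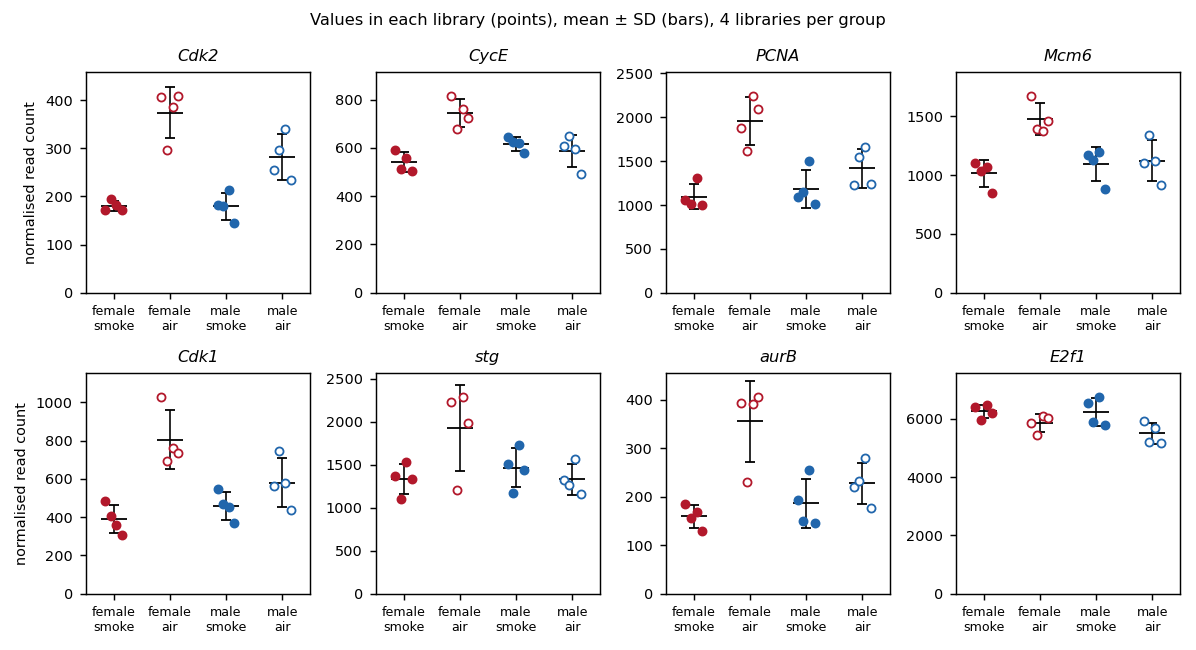
Normalised read counts (vertical axes, from 0) of 8 genes in each of the 16 libraries, with smoke left of air in each sex; points are libraries and bars are mean ± SD of 4 libraries. Female smoke points lie below all female air points for Cdk2, CycE, PCNA, Mcm6, Cdk1 and aurB, female air 2 is low for stg and aurB, and E2f1 overlaps between groups in both sexes.

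Among the 10 genes of mitosis and cytokinesis, 3 fell in females, and none was called in males. The median change was -0.52 in females and -0.02 in males, and all 10 female values were below 0.

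The chromosomal passenger kinase aurB (FBgn0024227, chromosome arm 2L) had the lowest female value of change among the 39 genes. It had 184, 156, 168 and 129 normalised reads in smoke-exposed females and 394, 230.0, 391 and 406 in air-exposed females. In males it had 194, 151, 255 and 146 in smoke and 221, 233, 279.8 and 176 in air. The female groups did not overlap and the male groups did. The aurB change was -1.13 ± 0.20 in females (adjusted p = 0.00865), and the male change was -0.30 ± 0.21 (adjusted p = 0.368). Its partners in the passenger complex were not called in females, with -0.52 ± 0.21 for Incenp (adjusted p = 0.119) and -0.34 ± 0.18 for borr (adjusted p = 0.227).

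Fizzy (fzy), the Cdc20 activator of the anaphase-promoting complex, had 361, 284, 358 and 257 in smoke-exposed females and 781, 412, 639 and 636 in air-exposed females. Pavarotti (pav), the kinesin of the central spindle that is needed for cytokinesis, had 754, 546, 594 and 464 in smoke-exposed females and 1492, 804, 1058 and 1134 in air-exposed females. Neither overlapped, and the changes were -0.95 ± 0.20 for fzy (adjusted p = 0.0163) and -0.92 ± 0.21 for pav (adjusted p = 0.0192). In males fzy had 309.5, 297, 442 and 238 in smoke and 307, 469.5, 504 and 335 in air. Male pav was 707, 637, 800.3 and 484 in smoke and 764, 872, 815 and 519.5 in air. Both overlapped, and the changes were -0.33 ± 0.23 for fzy (adjusted p = 0.355) and -0.17 ± 0.20 for pav (adjusted p = 0.606). The female pav call was lost without female air 4, female smoke 2 or female smoke 4.

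The other mitotic genes were not called in either sex. In females the condensin subunits had changes of -0.66 ± 0.20 for barr (adjusted p = 0.0556) and -0.38 ± 0.15 for glu (adjusted p = 0.113), and the spindle kinesin Klp61F had -0.51 ± 0.17 (adjusted p = 0.0691). The spindle checkpoint kinase BubR1 had -0.28 ± 0.22 in females and 0.30 ± 0.17 in males. The centralspindlin partner of pav, tum, had -0.40 ± 0.28 in females and 0.21 ± 0.22 in males.

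Leaving out 1 library at a time, 13 of the 18 female calls were kept in every one of the 8 fits: Cdk1, Cdk2, CycA, CycB, CycE, Mcm6, Orc1, PCNA, RnrS, aurB, dpa, fzy and geminin. Female counts of called members ranged from 13 to 27 in these fits, and the highest came without female air 2. EdgeR's quasi-likelihood test on recovered whole reads called the same 18 as lower, at a background of 7.34% of genes falling, and DESeq2 called these and 4 more, at 11.2%. At an adjusted p under 0.05, the authors' deposited table had 22 of the 39 genes lower and none higher in females, and 1 lower and 1 higher in males. The share of all genes under that threshold in the authors' table was not counted. Without regard to any model, 17 genes in females had all 4 smoke libraries below all 4 air libraries, where 10.8% of all genes did. In males this held for 1 gene, where 9.11% of all genes did.

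The female changes were of similar size in both pairs of replicate numbers, while the number of calls was not. In replicates 1 and 2 alone, which carry 1 style of column name, none of the 39 genes was called (12 genes were in the whole table), while 37 had changes below 0 with a median of -0.46. In replicates 3 and 4 alone, which carry another style, 11 were called (813 in the whole table) and 37 were below 0 with a median of -0.54. In males no member was called in either pair, with medians of -0.07 in replicates 1 and 2 and 0.05 in replicates 3 and 4.

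The scaling of the libraries moved the split of calls over all genes and, with it, the level of zero. In females 970 genes rose and 629 fell with the authors' size factors, against 722 and 1201 with libraries set to the same upper quartile and 644 and 1042 at the same total. The median of all genes was then -0.13 under either rescaling. The 39 genes' median lay 0.47 below that of all genes under each scaling, on the log2 scale. Rescaling multiplies a whole library by a single factor, so this gap could hardly change and does not test the result. Of the 39 genes 23 fell under either rescaling. In males 774 rose and 404 fell with the authors' factors, 459 and 542 at the same upper quartile and 444 and 467 at the same total.

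The response of the 2 sexes was compared directly as the female log2 change minus the male log2 change. CycE was the 1 gene of the 39 called, with a difference of -0.54 ± 0.13 (adjusted p = 0.0371), where 0.174% of all genes had a lower and 2.00% a higher value in females. All 39 differences were below 0, with a median of -0.45, against -0.01 for all genes, and they ran from -0.83 (aurB) to -0.08 (E2f1). By role, the median difference was -0.22 in G1 and S phase control, -0.40 in licensing, -0.37 in DNA synthesis, -0.63 in entry into mitosis and -0.61 in mitosis. At an unadjusted p under 0.05 in limma stood 16 of the 39, all below 0. Of all 8606 genes tested, 1203 stood under that p, 577 of them below 0. None of the 39 but CycE passed the adjustment in this fit. More of the 39 were called with replicate number as a term, as given with the dependence on the processing. Among the nearest were Orc1 at -0.62 ± 0.19 (adjusted p = 0.149), CycB3 at -0.41 ± 0.13 (adjusted p = 0.139) and dup at -0.45 ± 0.15 (adjusted p = 0.206). The adjusted p of CycE was 0.0546 in edgeR and 0.0842 at the same total, both above the threshold, and over all alternatives it ran from 0.00549 to 0.529. Leaving out 1 library kept the CycE call in 4 of 16 fits, those without female air 2, female smoke 1, male air 2 or male smoke 4.

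**Figure D3:**
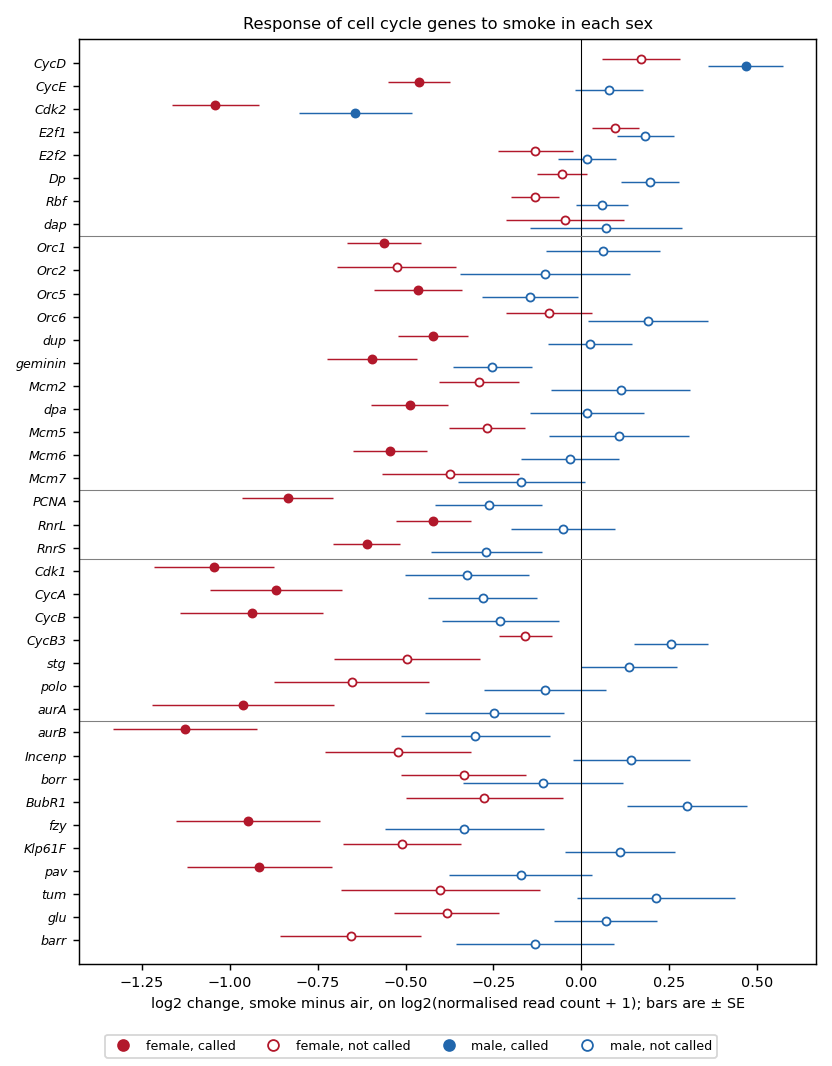
Log2 change of each gene, smoke minus air, on the log2(normalised read count + 1) scale (horizontal axis), with females in red and males in blue; bars are ± SE, filled points are called, open points are not, and lines part the role groups. Each female point lies left of its male point, female values run from -1.13 to 0.17 and male values from -0.64 to 0.47.

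Levels can be compared between genes only per length of transcript. In RPKM, reads scaled by library total and exon length, PCNA was the highest of the 38 genes with a length in air-exposed females, at 99.7 ± 11.2 (SD, n = 4), and had 51.5 ± 5.31 in smoke-exposed females. E2f1 had 49.0 ± 2.41 in smoke-exposed females and 49.6 ± 2.07 in air-exposed females, so in smoke-exposed females its level was close to that of PCNA. RnrS had 42.4 ± 5.26 in smoke-exposed females and 69.7 ± 2.18 in air-exposed females. At the low end aurA had 2.95 ± 0.483 in smoke-exposed females and 6.46 ± 1.92 in air-exposed females, and Mcm7 had 3.17 ± 0.429 in smoke-exposed females and 4.51 ± 0.961 in air-exposed females. The summed level of the 39 genes was 1559 to 1943 CPM in smoke-exposed females, against 2131 to 2865 in air-exposed females. It was 1639 to 2063 in smoke-exposed males, against 1618 to 2226 in air-exposed males.

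Other genes of the same machinery were taken from lists of 118 names, of which 116 were found and 113 tested in each sex. Of these 113, 22 fell and 4 rose in females, with a median of -0.25, and in males none fell and 5 rose, with a median of 0.06. Over all genes 7.09% fell in females and 4.64% in males. No difference between the sexes was called. In females 12 of 34 other replication genes fell and 1 rose, and 8 of 52 other mitotic genes fell and 2 rose. Of 27 other regulators 2 fell and 1 rose, a share of falls close to that over all genes.

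The other replication genes with the smallest adjusted p in females were Fen1, which trims Okazaki fragments (-0.76 ± 0.10), DNApol-alpha60 of the primase complex (-0.77 ± 0.13), the single-strand binding subunit RPA2 (-0.51 ± 0.09) and the clamp loader subunit RfC3 (-0.73 ± 0.14). Their adjusted p in limma ran from 0.00223 (Fen1) to 0.0115 (RfC3). Among mitotic genes these were Cdc16 of the anaphase-promoting complex (-0.34 ± 0.07), the central spindle protein feo (-0.86 ± 0.19), the checkpoint protein Bub3 (-0.47 ± 0.11) and the kinesin Klp67A (-1.02 ± 0.25). Grp, the checkpoint kinase Chk1, and Caf1-55, a histone chaperone subunit, also fell in females, with changes of -0.56 ± 0.08 (grp) and -0.35 ± 0.05 (Caf1-55).

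The 4 of 113 that rose in females and 5 of 113 in males are smaller shares than the 10.9% and 8.89% over all genes, and 4 of these genes were called in both sexes. Tribbles (trbl), a pseudokinase that promotes the breakdown of String in fly embryos, had 1904 ± 307 normalised reads in smoke-exposed females and 798 ± 75.6 in air-exposed females, and 1782 ± 254 in smoke-exposed males against 725 ± 97.7 in air-exposed males (SD, n = 4 each). It rose by 1.24 ± 0.13 in females (adjusted p = 0.00091 in limma) and 1.29 ± 0.13 in males (adjusted p = 0.00106). Cdc7, the kinase that fires licensed origins, rose by 0.44 ± 0.12 in females and 0.65 ± 0.13 in males. The checkpoint kinase Bub1 rose by 0.30 ± 0.08 in females and 0.45 ± 0.07 in males, and the kinesin Klp10A by 0.29 ± 0.08 and 0.35 ± 0.09. In males shtd, a subunit of the anaphase-promoting complex, rose by 0.42 ± 0.07 (adjusted p = 0.0112).

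Markers of other tissues also differed between the groups, and their part in the results above was not tested. Imaginal discs, whose cells divide mitotically, lie against the larval trachea, and 19 of 22 disc markers were found. In females 11 of 18 tested fell and none rose, with a median of -1.94, and in males 1 of 14 fell (tup), with a median of -0.95. Eyg, pdm2, Doc1 and Sp1 were tested in females alone, so the medians of the sexes cover different markers. The filter asks for 4 of 8 libraries, so a marker that is low in smoke can pass through its air libraries. In females dac, eyg, pdm2, Doc1 and Sp1, all among the 11 that fell, could not have passed on their smoke libraries alone. Such genes can raise the count of falls and lower the median. The summed level of the disc markers was 753 to 1165 CPM in smoke-exposed females, 879 to 1530 in air-exposed females, 837 to 1138 in smoke-exposed males and 702 to 1188 in air-exposed males, and no disc marker was at 0 in a whole group. Most of that sum came from zfh2, ci, sd and bi, none called in females, with changes of 0.11 (zfh2), -0.10 (ci), -0.07 (sd) and -0.01 (bi). The wing selector gene vg had 98.5, 30.6, 72.2 and 24.0 normalised reads in smoke-exposed females and 538, 93.5, 282 and 362 in air-exposed females. It had 24.3, 2.56, 210.3 and 2.34 in smoke-exposed males and 2.48, 305, 304 and 2.88 in air-exposed males, so each male group held libraries with a few vg reads and libraries with many.

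The disc markers and the cell cycle genes were also set side by side within groups. As a median log2 difference from air of the same sex, the 39 genes stood at -0.36, -0.55, -0.38 and -0.62 in female smoke 1 to 4 and at 0.19, -0.20, 0.03 and 0.02 in female air 1 to 4. The disc markers stood at -1.14, -2.49, -1.15 and -2.57 in female smoke 1 to 4 and at 0.57, -0.45, -0.13 and 0.24 in female air 1 to 4. The library lowest for the 39 genes was also lowest for disc markers in smoke-exposed females (4), air-exposed females (2) and smoke-exposed males (4), but not in air-exposed males, where the 39 genes were lowest in replicate 4 and disc markers in replicate 1. In males the 39 genes stood at 0.08, -0.10, 0.25 and -0.26 in smoke 1 to 4 and at -0.01, 0.17, 0.16 and -0.27 in air 1 to 4. The male disc markers stood at -0.43, -1.72, 0.39 and -2.11 in smoke and at -1.35, 0.81, 1.04 and -0.49 in air. These disc medians were taken over the 18 markers tested in females and the 14 tested in males.

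**Figure D4:**
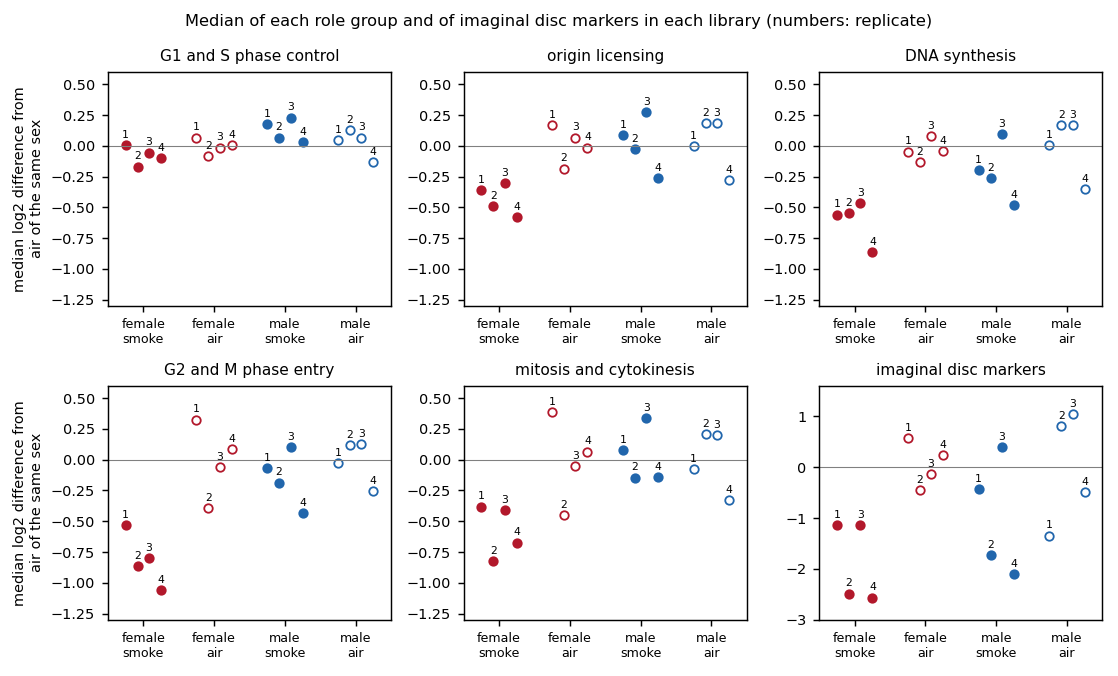
Median log2 difference from the mean of the air libraries of the same sex (vertical axis) for each role group and for the imaginal disc markers, which have a wider axis; each point is a library, numbered by replicate. The 4 smoke-exposed female points lie below the 4 air-exposed female points in licensing, DNA synthesis and entry into mitosis and among disc markers, and in mitosis and cytokinesis female air 2 lies between them.

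Several other tissues left RNA in the samples. Of salivary gland markers, which mark a polyploid tissue, all 6 found fell in females, with a summed level of 2.63 to 9.91 CPM in smoke-exposed females and 52.9 to 238 in air-exposed females, and none of 5 tested was called in males, with 3.61 to 34.5 in smoke-exposed males and 10.7 to 6543 in air-exposed males. Among them Sgs1, Sgs4, Sgs5 and Sgs8 could not have passed the filter on their female smoke libraries alone. Of 10 larval muscle markers none was called in females, at 1100 to 4943 in smoke and 590.4 to 10571 in air, and 5 fell in males, at 406 to 2469 in smoke and 2142 to 10177 in air. Among these 5, TpnC47D could not have passed the filter on its male smoke libraries alone. Of 8 neural markers 6 were tested and none called in females, at 27.3 to 37.3 in smoke and 44.4 to 55.4 in air. In males 1 neural marker (mira) fell, at 23.8 to 35.3 in smoke and 35.0 to 58.1 in air, and ase and wor were listed at 0 in smoke-exposed males. No hemocyte, fat body or midgut marker was called in either sex, though several lay far from 0. Of 6 midgut markers found only 2 passed the filter and were tested in each sex. The 6 fat body markers were all below 0 in both sexes, with a median of -0.51 in females, at 1108 to 5377 CPM in smoke and 811 to 5996 in air, and of -2.99 in males, at 201 to 1637 in smoke and 906 to 32734 in air. In males all 6 had an unadjusted p under 0.05 in limma. Of all 8705 genes tested in males 2742 did, 1233 of them lower in smoke. Of the 6 hemocyte markers 5 were above 0 in females, with a median of 0.34, at 526 to 747 CPM in smoke and 331 to 827 in air. In males all 6 were below 0, with a median of -0.77, at 172 to 488 in smoke and 424 to 802 in air, and 4 had an unadjusted p under 0.05. The median female minus male difference was 2.51 for fat body and 1.14 for hemocyte markers, none called, where that of the 39 genes was -0.45. It was -0.44 for imaginal disc, -1.42 for salivary gland, -1.45 for midgut and -0.04 for tracheal markers. For larval muscle it was 1.54, for neural markers 0.66 and for germline markers 0.34. The midgut and germline medians rest on 2 markers each. The disc marker tup and the tracheal marker Gasp were called, both with a higher change in females. Midgut markers summed to 0.13 to 18.7 CPM in smoke-exposed females, 1.15 to 205.9 in air-exposed females, 0.23 to 43.0 in smoke-exposed males and 4.94 to 21.3 in air-exposed males, with lambdaTry listed at 0 in males. Germline markers, another source of dividing cells, summed to 0.42 to 5.38 CPM over all libraries. Of 5 found, 2 were tested in each sex, and 1 of them (Rbp4) fell in males. Rbp4 was under the filter value of 10 in all 4 male smoke libraries and passed on its air libraries alone. Of the 11 tracheal markers 4 rose and 1 fell (vvl) in females, and 3 rose in males.

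Reads shared with overlapping genes touched few of the 39. In the reference annotation 24 of 38 genes shared no exonic base with another gene and 2 shared more than 20%. Cdk2 shared 43.9% of its exonic bases with CG17267, which had 5 reads over all 16 libraries, and Mcm7 shared 81.7% with an antisense RNA that had 1 read. Whether counting used strand is not given in the sources used here, so reads of Cdk2 or Mcm7 and of these neighbours cannot be told apart.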

How the data were processed

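Single-end RNA-seq of tracheal RNA gave 16 libraries in 4 groups of 4. Per the submitters' processing notes, STAR 2.6.0c and DESeq2 1.22.2 were used. The human build those notes name does not match the FlyBase identifiers, so no coordinates are given, and neither the counting tool nor its strand setting is given in the sources used here.

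The authors deposited, per sex, normalised gene signal, which the values show to be read counts over a size factor (0.750 to 1.30), and 100% of values came back as whole reads within 0.01. They also deposited, per sex, a comparison of smoke with air whose headers follow DESeq2, with log2 fold changes, p-values and a test statistic, a score with no fixed range. Each value column had a sample. The 24 pairs of replicates within groups had a chi-square per degree of freedom of 25.6 to 344, above sampling noise.

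A gene entered a test when 4 or more of the 8 libraries of the sex reached a value of 10. Within each sex smoke was set against air by limma 3.58.1 in R 4.3.3 with a mean-variance trend on log2(value + 1), two-sided, with Benjamini-Hochberg adjustment over all genes and a threshold of 0.05. The female minus male change was fitted over all 16 libraries. These fold changes understate the change of low genes. EdgeR 4.0.16 and DESeq2 1.42.0 on recovered reads, other pseudocounts, filters, scalings and library choices were alternatives. Overlaps, exon lengths and chromosome arms came from Ensembl BDGP6.54, in which 17253 identifiers matched.

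The members, the other gene lists and the alternatives were chosen with earlier results of these data known. Values in every library are given for PCNA, CycE, Cdk2, Cdk1, stg, E2f1 and dap, for up to 3 called genes per role and sex with the smallest adjusted p, and for up to 4 with the smallest p of the sex difference. From each list of other genes up to 4 called per sex are named. AurA is also given library by library, a choice made after its values were seen. CPM and RPKM were computed from recovered reads. The tests were checked on simulated data.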

Additional observations from a re-analysis of the deposited data

Results flagged for a closer look

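The test of the difference between the sexes was passed by CycE, with a female minus male change of -0.54.

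In 6 of 156 sets of 4 libraries 1 library stood far from the other 3, and chance flags about 1 in 20. In air-exposed females, Dp had 2982 normalised reads in replicate 1, against 2563 to 2618 in the others, and Orc5 had 228 in replicate 1, against 188 to 194. In the same group aurB had 230.0 in replicate 2, against 391 to 406. In air-exposed males, Mcm5 had 598 in replicate 4, against 928 to 955, and glu had 715 in replicate 4, against 945 to 975. CycB3 had 831 in replicate 3 of air-exposed males, against 731 to 743. Without female air 2 the aurB change in females was -1.32.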

How the results depend on the processing

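The female count of 18 called members stayed between 13 and 27 under every other setting tried except the replicate pairs alone, where it was 0 in replicates 1 and 2 and 11 in replicates 3 and 4. Without a filter 16 were called (Orc5 and aurA were lost), with a filter of 50 there were 19, and at the same total or upper quartile there were 23. Array weights gave 27, DESeq2 22 and edgeR 18. The male count of 2 was 1 at the same upper quartile and at the same total, 0 in replicates 1 and 2 and 0 in replicates 3 and 4, and between 0 and 2 with 1 library left out. With the style of column name as a term, the 18 female and 2 male calls were kept and 1 was added in each sex. The sex difference count of 1 was 0 at the same total, 0 in edgeR, 2 in DESeq2, 8 with array weights, 0 in either replicate pair alone, and between 0 and 2 with 1 library left out. The replicate pairs hold fewer libraries than the full groups, and the cause of these moves was not tested.

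Deviations of same-numbered libraries correlated at 0.171, 0.289, 0.421 and -0.098 in females and 0.376, 0.038, 0.371 and 0.463 in males. Every smoke library but female smoke 4 and male smoke 2 correlated best with the air library of its number. Replicate numbers were not taken to pair the samples, given these exceptions and no label that states a pairing. A source shared by libraries of a number therefore remains possible, and the main fits leave it out. Serial numbers in the column names of replicates 3 and 4 run close together within a replicate number, and no label says what they mark. With the replicate block the counts were 27 in females, 9 in males (4 rose and 5 fell) and 14 for the sex difference.

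Among genes given library by library, a sign turned only where the change was not called. In females E2f1 was -0.0125 at the same upper quartile and -0.0196 at the same total, and dap ran from -0.1556 to 0.0962 with 1 library left out. In males at the same upper quartile CycE was -0.0056, dap -0.0145, Orc1 -0.0228 and dup -0.0612. At the same total dap was -0.0024, Orc1 -0.0107 and dup -0.049. In edgeR dup was -0.0027, in replicates 1 and 2 alone dap was -0.0475 and dup -0.0006, and in replicates 3 and 4 alone Mcm6 was 0.0218. With 1 male library left out, CycE ran from -0.0013 to 0.1324, dap from -0.0679 to 0.1896, Orc1 from -0.0681 to 0.151, dup from -0.0669 to 0.0934, Mcm6 from -0.124 to 0.0681 and RnrL from -0.1694 to 0.0481. Depth limits aurA, Orc6, Orc5, Mcm7 and aurB most, which had under 100 reads in their poorest library.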

Other observations

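The remaining called genes of the other replication and mitotic lists were looked at after their values were seen. All 3 subunits of the single-strand binding complex fell in females: RpA-70 had a change of -0.31 ± 0.08, RPA2 of -0.51 ± 0.09 and RPA3 of -0.50 ± 0.12. Of the clamp loader, RfC3 (-0.73 ± 0.14), RfC4 (-0.59 ± 0.16) and RfC38 (-0.38 ± 0.08) fell, while Gnf1 (-0.12 ± 0.09, adjusted p = 0.425 in limma) and CG8142 (-0.42 ± 0.13, adjusted p = 0.0593) were not called. Mcm10, which helps to activate the loaded helicase, had 298 ± 63.5 normalised reads in smoke-exposed females and 514 ± 64.7 in air-exposed females (SD, n = 4 each), a change of -0.80 ± 0.17 (adjusted p = 0.0157 in limma). Among mitotic genes, the kinetochore subunit Spc25 changed by -1.07 ± 0.31 (adjusted p = 0.0448), thr, whose product binds separase, by -0.81 ± 0.23 (adjusted p = 0.045), and scra, the anillin of the contractile ring, by -0.62 ± 0.16 (adjusted p = 0.0351). In males the same genes were not called, with changes of -0.34 ± 0.22 for Mcm10, -0.19 ± 0.28 for Spc25, -0.06 ± 0.20 for thr and 0.09 ± 0.14 for scra.

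The wing gene nub, like vg, differed widely between libraries of a group. It had 112, 36.2, 27.9 and 17.3 normalised reads in smoke-exposed females and 498, 94.3, 285 and 299 in air-exposed females. It had 36.9, 7.67, 79.4 and 3.51 in smoke-exposed males and 4.96, 303, 231 and 7.67 in air-exposed males. In air-exposed males replicates 2 and 3 were far above replicates 1 and 4.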
